A study of Tursiops truncatus with 5 samples.

Results

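The heme synthesis enzymes examined here were 9 genes of 7671 with a human Entrez Gene identifier in the deposited dolphin blood table. They were taken by a fixed list of identifiers, and the rule itself reads no measured value. The 9 identifiers were 211, 212, 210, 3145, 7390, 7389, 1371, 5498 and 2235, and 8 of them carried a symbol (ALAS1, ALAS2, ALAD, UROS, UROD, CPOX, PPOX and FECH in the order of the pathway). Identifier 3145 is given by its number, because the sources used here did not pair it with a name. All 9 genes had a row, on 12 of the 9906 rows with an identifier, and values were summed over the rows of a gene.

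Heme is the iron-containing ring that lets hemoglobin carry oxygen. In mammals it is built by a chain of enzymes that begins in the mitochondrion, continues in the cytosol and ends in the mitochondrion, where iron is inserted into the finished ring. Every nucleated cell makes some heme, whereas developing red cells make it in large amounts for hemoglobin and use their own form of the enzyme that starts the chain.

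The libraries were made from whole blood of 3 managed bottlenose dolphins in 2013, without globin depletion, because these 5 samples were too dilute for that step. Pele, a female aged 28, gave blood on April 18 and June 24, and Keo, a female aged 12, on July 14 and September 29. Hua, a male aged 5, gave 1 library, of June 12. No treatment was applied, all blood was stored in PAXgene tubes, and each animal has its own age and dates. Between Pele and Keo, both female, animal, age and date cannot be told apart, and for Hua neither can sex. Levels are TPM, the share of a library's transcripts that a gene holds, corrected for transcript length, and whole blood mixes cell types, so fewer cells of a type and less RNA per cell cannot be told apart.

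Identifiers 3043 and 3040, the globin pair by the rule used for these genes, took 55.9% to 74.4% of each library (67.2% ± 7.44, SD, n = 5), least in Pele June and most in Keo July. Each value is therefore given as deposited and also rescaled to 1000000 without that pair. With limma on log2(TPM + 1), the median difference of Keo from Pele over all 23642 features was -0.425 on the deposited scale and -0.055 on the rescaled scale (23640 features), so changes are also read against these shifts. A feature is a gene identifier, or a row that has none.

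The chain starts with 5-aminolevulinate synthase, in a red cell form (ALAS2) and a form made in most tissues (ALAS1). ALAS2 (identifier 212) was by far the most abundant of the 9, at 3092 TPM in Pele April, 2477 in Pele June, 3232 in Keo July, 3159 in Keo September and 5185 in Hua June (3429 ± 1026, SD, n = 5). Hua stood above the other 4 libraries, and both of Keo's libraries were above both of Pele's, although Pele April and Keo September were close. ALAS2 ranked between 6 and 17 among all features in each library, and it held 96.8% to 98.3% of the summed TPM of the 9 genes. ALAS2 lay on 2 rows, of which the main one carried 99.4% to 99.6%.

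Rescaled, ALAS2 was 8582 in Pele April, 5663 in Pele June, 12701 in Keo July, 10447 in Keo September and 18759 in Hua June. The ranking of the 3 animals was as on the deposited scale. The Keo mean was 1.63 times the Pele mean, against 1.15 times as deposited. Set against the globin pair itself, ALAS2 was 4.88 TPM per 1000 TPM of the pair in Pele April, 4.46 in Pele June, 4.37 in Keo July, 4.57 in Keo September and 7.23 in Hua June. On that measure the libraries of Keo and Pele overlapped and Hua's alone stood above them. The make-up of the pair also differed in Hua June, where identifier 3043 was at 269170 TPM and identifier 3040 at 447562. In the libraries of Keo and Pele identifier 3043 was at 310806 to 417253 TPM and identifier 3040 at 244237 to 322256. ALAS2 relative to either identifier alone was not tested.

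**Figure D1:**
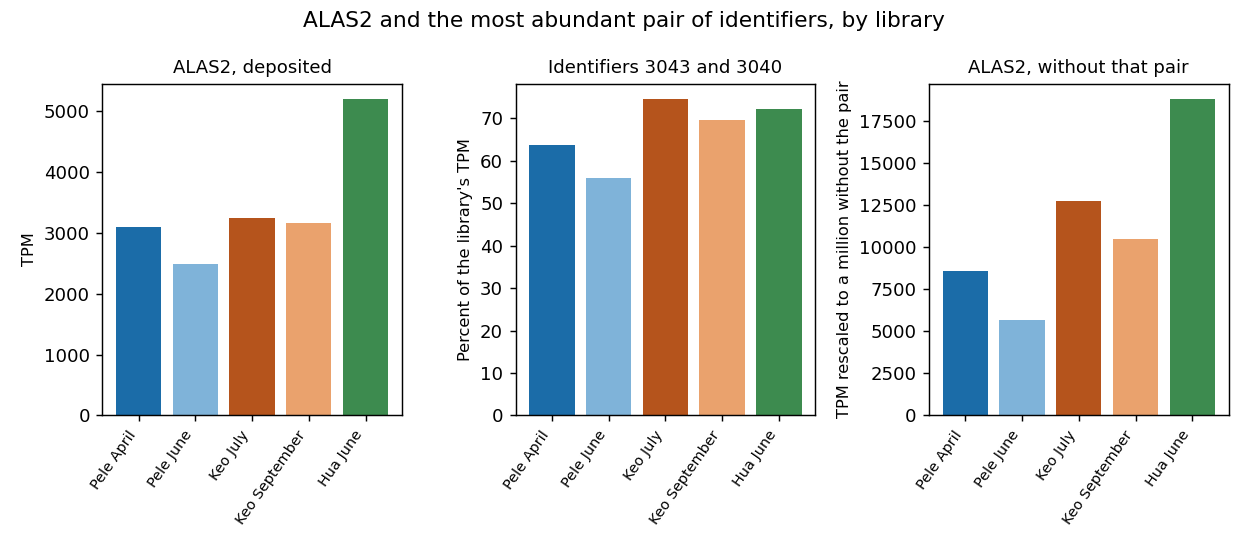
Bars give, for each library, the deposited TPM of ALAS2 (left), the percent of the library's TPM held by identifiers 3043 and 3040 (middle) and ALAS2 in TPM rescaled to 1000000 without that pair (right), with each axis starting at 0. ALAS2 was highest in Hua June on both scales (5185 and 18759) and lowest in Pele June (2477 and 5663), while the pair's share was lowest in Pele June at 55.9%.

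ALAS1 (identifier 211) was low beside ALAS2, at 6.22 TPM in Pele April, 9.22 in Pele June, 4.15 in Keo July, 5.62 in Keo September and 4.90 in Hua June (6.02 ± 1.95). Both Pele libraries were above the other 3, and Pele June, the lowest library for ALAS2, was the highest for ALAS1. The ratio of ALAS2 to ALAS1, which is free of the library scale, was 497 in Pele April, 269 in Pele June, 779 in Keo July, 562 in Keo September and 1058 in Hua June (633 ± 299). Every Keo library had a higher ratio than either Pele library, and Hua had the highest. Rescaled, ALAS1 moved little, from 16.3 to 21.1, and Keo and Pele overlapped.

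ALAD (identifier 210) joins pairs of aminolevulinate molecules into porphobilinogen, the single-ring building block. It was at 15.1 TPM in Pele April, 14.2 in Pele June, 20.7 in Keo July, 16.4 in Keo September and 25.3 in Hua June (18.3 ± 4.62). Identifier 3145 was at 11.1, 13.6, 20.0, 15.4 and 23.6 in the same libraries (16.8 ± 5.01). Both genes followed the order of the animals seen for ALAS2, with Hua highest, Keo next and Pele lowest, and with no overlap between animals. Rescaled, ALAD ran from 32.3 in Pele June to 91.4 in Hua June, and identifier 3145 from 30.9 in Pele April to 85.4 in Hua June.

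UROS (identifier 7390) closes the chain of rings into uroporphyrinogen III, and UROD (identifier 7389) then removes carboxyl groups from its side chains. UROS was the least abundant member, at 2.53 TPM in Pele April, 3.68 in Pele June, 2.33 in Keo July, 2.77 in Keo September and 2.42 in Hua June (2.75 ± 0.547), and the animals overlapped. It lay on 2 rows whose balance shifted between libraries: the row with the higher mean held 85.1% of UROS in Hua June and 34.8% in Pele June. That row alone was at 2.06 TPM in Hua June and 1.19 to 1.31 in the other 4 libraries, whereas the other row was lowest in Hua June at 0.36. UROD was at 15.2, 16.9, 12.4, 11.8 and 12.8 TPM in Pele April, Pele June, Keo July, Keo September and Hua June (13.8 ± 2.14), higher in Pele than in Keo. Its main row carried 86.7% to 95.9%. Rescaled, UROD spanned only 38.5 to 48.6, and the animals overlapped.

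CPOX (identifier 1371) and PPOX (identifier 5498) oxidize the ring to protoporphyrin IX in the mitochondrion. CPOX was at 3.04, 3.96, 2.24, 3.03 and 2.85 TPM in the same order of libraries (3.02 ± 0.617), and PPOX at 14.5, 15.8, 10.2, 12.2 and 10.5 (12.7 ± 2.47). As deposited, both were higher in each Pele library than in each Keo library, although for CPOX Pele April and Keo September were almost equal. Rescaled, PPOX was the steadiest member, from 36.2 to 40.4 with a coefficient of variation of 4.67%, and CPOX ran from 8.44 to 10.3.

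FECH (identifier 2235), or ferrochelatase, inserts iron into protoporphyrin IX and so finishes heme. It was at 3.42 TPM in Pele April, 3.68 in Pele June, 8.66 in Keo July, 6.41 in Keo September and 5.29 in Hua June (5.49 ± 2.15). Both Keo libraries were above Hua, and Hua was above both Pele libraries. Rescaled, it was 9.49, 8.41, 34.0, 21.2 and 19.1 in that order, again with no overlap between Keo and Pele. Of the 4 members lowest in Pele (ALAS2, ALAD, identifier 3145 and FECH), FECH was the one with Keo, not Hua, highest. Relative to PPOX in the same library, FECH was 0.235 and 0.232 in Pele, 0.847 and 0.527 in Keo and 0.502 in Hua.

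**Figure D2:**
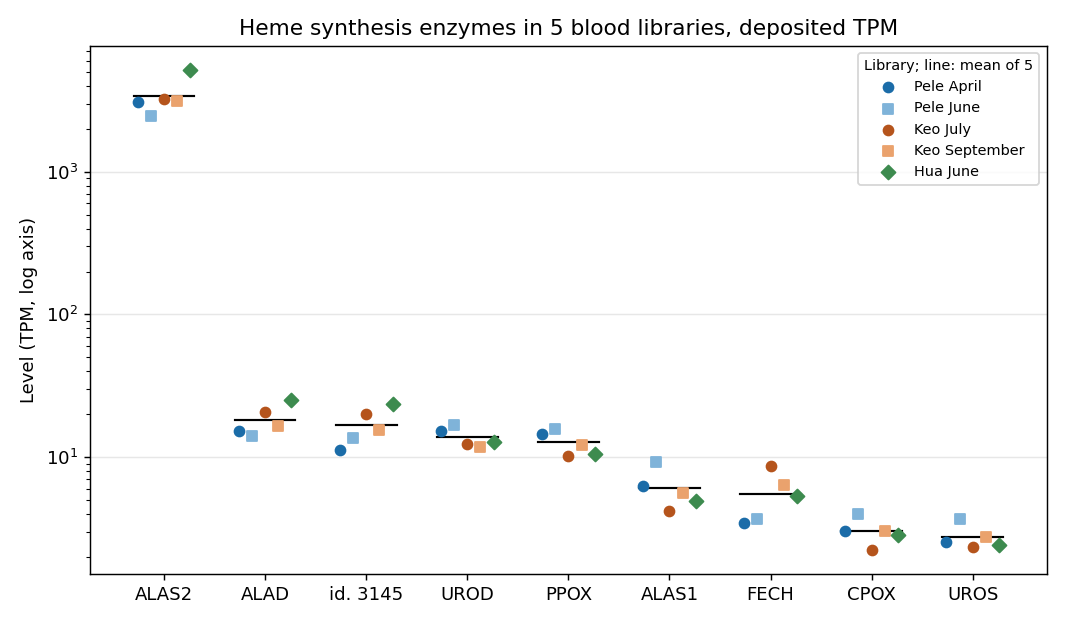
Points give the deposited TPM of each of the 9 genes (log axis) in the 5 libraries, black lines the mean of the 5, and genes are ordered by that mean. ALAS2 (mean 3429 TPM) stood far above the other 8 genes, whose means ran from 2.75 to 18.3 TPM.

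By mean TPM the order was ALAS2, ALAD, identifier 3145, UROD, PPOX, ALAS1, FECH, CPOX and UROS. Adjacent genes kept this order in all 5 libraries for 3 of the 8 neighbouring pairs. These were ALAS2 above ALAD, by 186-fold (geometric mean over libraries), ALAD above identifier 3145, by 1.11-fold, and PPOX above ALAS1, by 2.15-fold. UROD lay below identifier 3145 in 3 libraries and FECH below ALAS1 in 2, both from Pele. Over 5 libraries a two-sided exact sign-flip permutation test cannot reach 0.05 (the smallest p it allows is 0.063), and the adjusted p for the 8 neighbouring pairs was 0.167 at the lowest (Benjamini-Hochberg), so this test could separate no neighbours. Rescaled by library the order was the same except that FECH came before ALAS1.

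Keo was compared with Pele to ask how far the enzymes varied between animals that each had a pair of libraries. FECH was the only member called higher in Keo on both scales, by 0.90 on the log2(TPM + 1) scale as deposited (SE 0.28, adjusted p = 0.0278, limma) and by 1.49 rescaled (SE 0.22, adjusted p = 0.0180). Identifier 3145 was called higher on the rescaled scale alone (1.00, SE 0.20, adjusted p = 0.0496), and its deposited difference was 0.48 (SE 0.32, adjusted p = 0.237). ALAS2 and ALAD also had positive differences on both scales but were not called. No member was called lower in Keo on either scale.

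On the deposited scale 1 of the 9 genes was called higher, against a background of 0.592% of all features called higher and 9.64% called lower. On the rescaled scale 2 of 9 were called higher, against 1.07% higher and 0.766% lower. The members' median difference was -0.20 as deposited and 0.23 rescaled, beside medians over all features of -0.425 and -0.055, and 8 of 9 members lay above the median of all features on each scale, ALAS1 being the exception. Keo and Pele did not overlap for 8 of the 9 genes as deposited, 4 of them higher in Keo and 4 lower, where 2.77% of all features lay wholly higher in Keo and 68.1% wholly lower. Rescaled, 5 of 9 did not overlap, all of them higher in Keo, where 19.8% of all features lay wholly higher and 28.1% wholly lower.

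Both calls rested on few libraries. As deposited, the difference in FECH was 0.70 without Keo July (adjusted p = 0.528), 0.94 without Pele June (adjusted p = 0.289) and 0.85 without Pele April (adjusted p = 0.153), so that its direction held and its call was lost. Rescaled, FECH lost its call without Pele April (1.57, adjusted p = 0.170) and without Pele June (1.41, adjusted p = 0.226). For identifier 3145 the call was lost under 10 of 13 alternatives, and the difference with a library left out stayed between 0.70 and 1.31. The lost calls included those without Keo July (0.70, adjusted p = 0.112), without Hua June (1.00, adjusted p = 0.0532), without Pele June (1.01, adjusted p = 0.322) and without Pele April (1.00, adjusted p = 0.332).

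The members between these ends did not pass the test. ALAS2 differed by 0.21 as deposited (SE 0.19, adjusted p = 0.372) and by 0.72 rescaled (SE 0.27, adjusted p = 0.267), and ALAD by 0.31 (SE 0.32, adjusted p = 0.424) and 0.83 (SE 0.21, adjusted p = 0.108). With a library left out, the rescaled difference in ALAD ran from 0.54 to 1.12. ALAS1, UROS, UROD, CPOX and PPOX had deposited differences of -0.56, -0.20, -0.38, -0.31 and -0.41, with adjusted p from 0.147 to 0.538. Of these 5 genes, UROS, UROD, CPOX and PPOX had a positive difference once rescaled (0.07 to 0.23), so that their direction depended on the scale, and ALAS1 had -0.12. None of the 5 was called.

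Hua was set against the other animals (the average of the Keo mean and the Pele mean) to ask whether the young male's library stood apart. These values share their libraries with the comparison of Keo and Pele, and with 1 library Hua has no spread between libraries, so it is assumed to vary like those of the others. Under that assumption ALAS2 was called higher in Hua, by 0.80 on the deposited log2(TPM + 1) scale (SE 0.21, adjusted p = 0.0122), a 1.74-fold difference, and it was the member called there. On this scale the error came from the trend of variance on level alone, and with no trend the call was lost (adjusted p = 0.124). It was 1 of 9 genes, against a background of 0.283% of features called higher and 1.59% called lower. Rescaled, ALAS2 differed by more, 1.07, with a larger error (SE 0.30, adjusted p = 0.139), and was not called. Without Pele June the deposited difference was 0.72 and was no longer called (adjusted p = 0.0680).

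ALAD and identifier 3145 were also highest in Hua June, with deposited differences of 0.59 (SE 0.35, adjusted p = 0.479) and 0.65 (SE 0.35, adjusted p = 0.422). Rescaled, they were 0.87 (SE 0.23, adjusted p = 0.124) and 0.93 (SE 0.22, adjusted p = 0.0894). By limma 0 of 9 members were called on that scale and 3 of 9 (ALAS2, ALAD and identifier 3145) had an unadjusted p under 0.05. Of all features 0.355% were called higher and 0.909% lower, and 15.9% had an unadjusted p under 0.05. With a library left out, the rescaled differences ran from 0.72 to 1.02 for ALAD and from 0.78 to 1.08 for identifier 3145. FECH in Hua lay between the other animals, with differences of 0.02 (SE 0.32) and 0.27 (SE 0.25).

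ALAS1, UROS, UROD, CPOX and PPOX had deposited differences of -0.26, -0.15, -0.11, -0.06 and -0.28 in Hua and rescaled differences between -0.04 and 0.17, none of them called. By its most abundant row alone UROS differed by 0.45 in Hua, so its direction there depended on the row. The members' median was -0.06 as deposited and 0.17 rescaled, beside -0.236 and -0.045 over all features. Hua lay outside the range of the other 4 libraries for 3 of 9 genes as deposited (ALAS2, ALAD and identifier 3145) and for 4 rescaled, CPOX being the added one, at 10.3 in Hua June. In each of these Hua was the highest library, as it was for 4.22% of all features as deposited and for 19.6% rescaled, while it was the lowest for 31.0% and 28.7%.

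**Figure D3:**
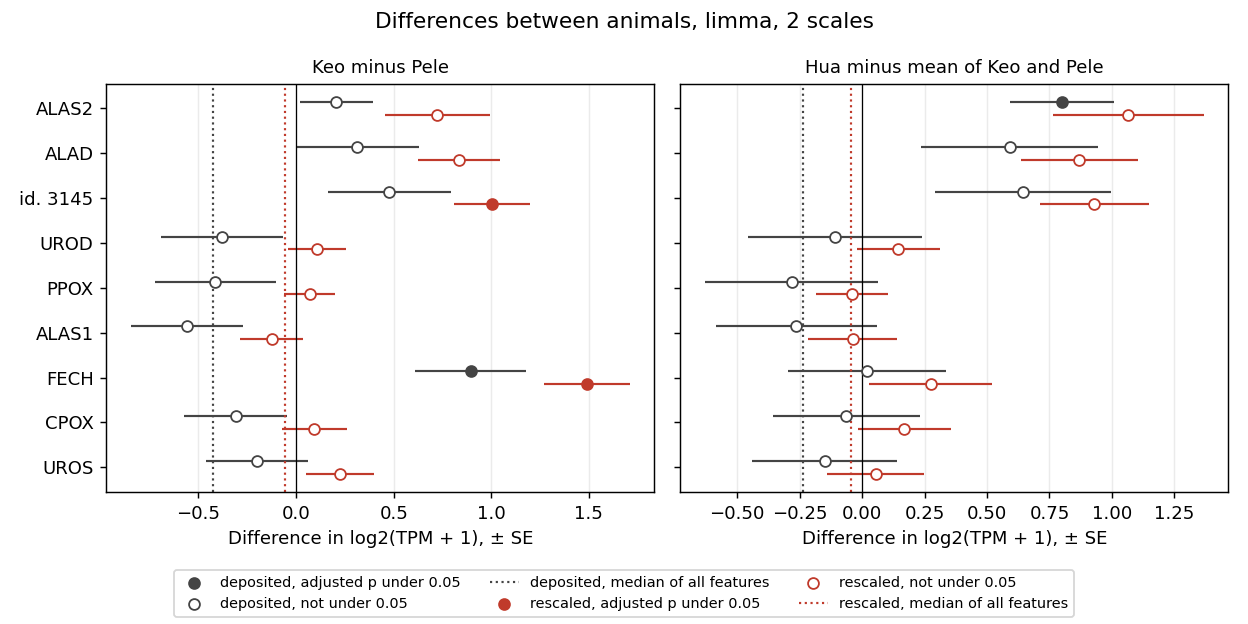
Points give the difference in log2(TPM + 1) with its standard error for Keo minus Pele (left) and for Hua minus the mean of Keo and Pele (right), as deposited (black) and rescaled (red), filled where the adjusted p was under 0.05, with dotted lines at the median of all features. FECH was filled on both scales in Keo minus Pele (0.90 and 1.49), identifier 3145 on the rescaled scale (1.00), and ALAS2 on the deposited scale for Hua (0.80).

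The dates within an animal give a scale for these differences, as values with no test. From April to June in Pele, rescaled ALAS2 changed by -0.60 and ALAD by -0.37 in log2(TPM + 1), identifier 3145 by 0.01 and FECH by -0.16, beside a median of 0.02 over all features. From July to September in Keo, rescaled ALAS2 changed by -0.28, ALAD by -0.58, identifier 3145 by -0.62 and FECH by -0.66, beside a median of 0.08. Rescaled, the later date was thus the lower one in both animals for ALAS2, ALAD and FECH, and also for UROD (-0.13 and -0.31). For FECH the gap between the animals (1.49) was over the gap between dates in either, whereas for ALAS2 the gap of 0.72 between Keo and Pele was near that of 0.60 between Pele's dates. As deposited, the changes of ALAS2 were -0.32 and -0.03, against medians of 0.24 and 0.25. Those of ALAD were -0.09 and -0.32. FECH and UROD rose in Pele on that scale (0.08 and 0.14) and fell in Keo (-0.38 and -0.06), so their direction in Pele depended on the scale.

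Once the globin pair was left out, the 9 genes fell into a variable and a steady set. FECH, identifier 3145, ALAS2 and ALAD had coefficients of variation of 56.3%, 46.4%, 44.0% and 42.1% over the 5 libraries, above the 18.3% that was the median of all features. PPOX, CPOX, ALAS1, UROS and UROD had 4.67%, 8.64%, 9.95%, 10.4% and 10.4%, all below it. As deposited this split at the median did not hold: the median of all features was 30.9%, and FECH (39.2%) and ALAS1 (32.4%) were the 2 members above it. ALAS2 (29.9%), identifier 3145 (29.9%) and ALAD (25.2%) lay below that median. UROD, PPOX, UROS and CPOX were lower still (15.5%, 19.5%, 19.9% and 20.4%).

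The members' profiles were compared with that of ALAS2 by the root mean square distance between rescaled log2(TPM + 1) values, each gene centred on its own mean over the 5 libraries. Among 16356 features with a rescaled mean of at least 5, ALAD was at a distance of 0.151 from ALAS2 (place 39 in nearness) and identifier 3145 at 0.259 (place 169). UROD, FECH, CPOX, UROS and PPOX were at 0.484 to 0.556 and ALAS1 at 0.661, beside a median of 0.641 over all features compared. ALAD and identifier 3145 were thus nearest to ALAS2 among the members, and ALAS1, which makes the same product as ALAS2, was the farthest. The distances describe 5 libraries that share one rescaling and carry no test. They depend on how much a gene varied as well as on the shape of its profile. They are therefore not separate from the split by coefficient of variation.

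**Figure D4:**
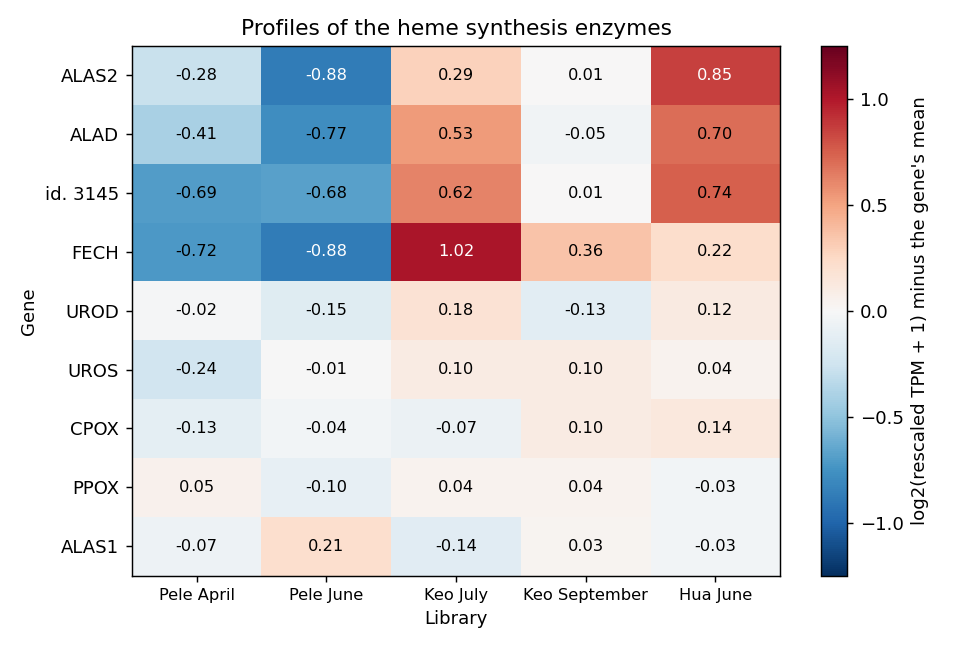
Colours and numbers give log2(rescaled TPM + 1) minus the gene's own mean over the 5 libraries, with libraries in columns and genes in rows. ALAS2, ALAD and identifier 3145 were between -0.88 and -0.68 in Pele June and between 0.70 and 0.85 in Hua June. Identifier 3145 was slightly lower in Pele April (-0.69) than in Pele June (-0.68). FECH peaked in Keo July at 1.02, and the other 5 genes stayed between -0.24 and 0.21.

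The ratios between members, which no rescaling can change, showed this grouping only in part. The log2 ratio of ALAS2 to ALAD stayed within a range of 0.40 over the 5 libraries, and that of ALAD to identifier 3145 within 0.39. Among the steady genes, UROS to CPOX stayed within 0.32 and UROD to PPOX within 0.33. In contrast, ALAD to PPOX spanned 1.42, ALAS2 to ALAS1 1.98 and ALAS1 to FECH 2.39, the widest of all 36 pairs. Within the variable set, ALAS2 to identifier 3145 spanned 0.78. FECH spanned 1.39 with ALAS2, 0.995 with ALAD and 0.951 with identifier 3145, so it kept no narrow ratio to the other variable genes. ALAD relative to UROD was 0.993 in Pele April, 0.840 in Pele June, 1.68 in Keo July, 1.39 in Keo September and 1.97 in Hua June, so that ALAD exceeded UROD in Keo and Hua and not in Pele.

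The named genes with a profile nearest to ALAS2 were taken from the 607 identifiers that a source pairs with a description. They were ArfGAP with GTPase domain, ankyrin repeat and PH domain 1 (distance 0.0738, place 3), family with sequence similarity 210 member B (0.151, place 40), fructosamine 3 kinase (0.162, place 51), MOB kinase activator 1B (0.241, place 147) and ring finger protein 11 (0.251, place 158). The nearest of them was at 16.7, 9.35, 25.2, 18.5 and 34.6 rescaled TPM in Pele April, Pele June, Keo July, Keo September and Hua June. It was picked for its nearness to ALAS2 in these libraries, so sharing the lowest (Pele June) and highest (Hua June) library follows from that choice.

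Other genes of red cells and of iron were read from lists of which only part could be named. Of 36 listed erythroid genes 22 had a row and 3 a sourced name. The gene described as BCL2/adenovirus E1B 19kDa interacting protein 3-like helps clear mitochondria as red cells mature. It was at 139 and 145 TPM in Pele, 276 and 230 in Keo and 315 in Hua. It rose in Keo on the rescaled scale by 1.34 (SE 0.19, adjusted p = 0.0154), a call lost without Pele April (1.45, adjusted p = 0.154) or Pele June (1.23, adjusted p = 0.233), and its deposited difference was 0.82 (SE 0.30, adjusted p = 0.0534). Stomatin, a protein of the red cell membrane that other cells also make, was at 61.9 and 65.6 TPM in Pele, 28.8 and 30.6 in Keo and 20.7 in Hua, and fell in Keo as deposited by 1.08 (SE 0.32, adjusted p = 0.0194) but was not called once rescaled (-0.58, adjusted p = 0.0850). Its deposited call was lost when any 1 of the 4 libraries of Keo and Pele was left out, with differences from -1.12 to -1.04 and adjusted p from 0.114 to 0.528. LIM domain binding 1, a partner of erythroid transcription factors, was not called on either scale (-0.72 and -0.23).

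Of 45 listed genes of iron and heme handling 33 had a row and 5 a sourced name, and 0 of the 5 were called in either comparison on either scale by limma. At an unadjusted p under 0.05 there was 1 of 5 on each scale in Keo against Pele, 1 for Hua as deposited and 3 for Hua rescaled. The shares of all features at that threshold were 35.0% and 15.3% for Keo against Pele (deposited and rescaled) and 13.2% and 15.9% for Hua. Family with sequence similarity 210 member B, a mitochondrial protein of red cell heme formation in vertebrates, was at 36.1 and 30.7 TPM in Pele, 30.7 and 31.8 in Keo and 51.2 in Hua. Its rescaled difference in Hua was 0.92 (SE 0.20, adjusted p = 0.0753, unadjusted p = 0.00173). The iron exporter of solute carrier family 40 had rescaled differences of 0.22 in Keo and -0.41 in Hua (unadjusted p = 0.122 and 0.0191). The translocator protein, poly(rC) binding protein 2 and nuclear factor (erythroid-derived 2)-like 2 had rescaled differences of -0.16, -0.10 and 0.00 in Keo and -0.60, 0.09 and -0.21 in Hua, with unadjusted p from 0.00404 to 0.986. Of 16 listed genes of iron-sulfur cluster assembly 13 had a row and 2 a name, and neither was called. The bolA homolog 3 of that list was at 131 and 139 TPM in Pele, 113 and 99.3 in Keo and 178 in Hua, with a rescaled difference of 0.84 in Hua (SE 0.19, adjusted p = 0.0814, unadjusted p = 0.00230).

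Markers of other blood cells also differed between the libraries. The 2 named neutrophil and monocyte markers of 10 listed (7 with a row) summed to 194 and 250 TPM in Pele, 102 and 169 in Keo and 85.6 in Hua, and the 4 named lymphocyte markers of 11 listed (10 with a row) to 256 and 344 in Pele, 152 and 192 in Keo and 153 in Hua. Rescaled, the neutrophil and monocyte sum was 537 and 572 in Pele, 402 and 557 in Keo and 310 in Hua, and the lymphocyte sum 710 and 786, 595 and 633, and 555. Both rescaled sums were thus lowest in Hua, where ALAS2 was highest, whereas as deposited the lymphocyte sum was lowest in Keo July. Keo and Pele overlapped for the rescaled neutrophil and monocyte sum and not for the other 3 sums, each of which was higher in Pele, where FECH was lowest. Of all features, 68.1% as deposited and 28.1% rescaled also lay wholly lower in Keo than in Pele. Rescaled, 28.7% of all features were lowest in Hua. The lymphocyte sums hid members that went different ways, which are named here after their values were seen. Granzyme H, a protein of cytotoxic lymphocytes, was lower in Keo by limma on both scales (-2.64, adjusted p = 2.35e-14, and -2.29 rescaled, adjusted p = 0.000253) and did not pass in Hua (-0.18 and 0.11). The deposited p rests on the trend of variance on level alone, not on the spread of granzyme H itself. With a library left out, the difference in Keo ran from -2.87 to -2.42 as deposited and from -2.38 to -2.20 rescaled. KLRD1, a lectin-like receptor of natural killer cells, was called lower in Hua (-1.56, adjusted p = 0.00221, and -1.37 rescaled, adjusted p = 0.0123), whereas its rescaled difference in Keo was 0.41. The call in Hua was lost on both scales without Pele June (-1.42, adjusted p = 0.0631, and -1.29, adjusted p = 0.0781), as deposited also without Keo September (-1.53, adjusted p = 0.108), and rescaled also without Pele April (-1.45, adjusted p = 0.0529). CD37, SH2 domain containing 1B and the neutrophil and monocyte markers, integrin alpha M and ficolin 1, were not called in either comparison. Rescaled, KLRD1 and SH2 domain containing 1B were lowest in Hua. CD37 and granzyme H were not, being lower in both Keo libraries (261 and 283 against 299 in Hua, and 17.9 and 19.3 against 45.6). None of these named markers was at 0 in any library, and 6 of 9 platelet markers had a row but no sourced name. The part of these cells in the differences of the heme synthesis genes was not tested.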

How the data were processed

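Total RNA from whole blood was sequenced in 5 libraries of 3 dolphins (Pele 2, Keo 2, Hua 1). The authors deposited TPM values of 25877 transcripts. The submitters' processing notes name Bowtie2, RSEM 1.2.21 and Trimmomatic, and the series' design text a Trinity assembly made de novo. The study's methods speak of FPKM, but the columns sum to nearly 1000000, so the unit was read as TPM. In every row the mean was 1 or more, and 3 or more libraries had a value above 0. Transcripts match human proteins, so a gene can be split over rows or missed. TPM keeps no read depth, so depth and counting error are unknown.

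TPM was summed over rows that share an Entrez Gene identifier, and rows with none stayed single (23642 features). Differences were fitted with limma 3.58.1 in R 4.3.3 (lmFit, eBayes with trend, 1 coefficient per animal, 5 libraries) on log2(TPM + 1), with Benjamini-Hochberg adjustment over all features at 0.05. The pseudocount of 1 understates the change of low genes. On the deposited scale the estimated prior degrees of freedom had no finite value, so that errors came from the trend alone. A second scale left out identifiers 3043 and 3040 and rescaled each library to 1000000. Libraries of an animal are separate blood draws from that animal, so p-values cover only the spread between these libraries. Python 3.11.15, numpy 2.4.6, pandas 2.3.3 and matplotlib 3.10.9 were used. The fit was also run on simulated data with independent normal noise drawn from its own variances. Such data cannot test those variances or shifts shared by the genes of a library.

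The members, lists and tests were chosen with earlier results of these data known. The named genes are all members, every gene of the erythroid, iron and heme, and iron-sulfur lists whose identifier the study's module table pairs with a description, and the 5 named identifiers nearest to ALAS2 in profile. That table is a selected set. Of the neutrophil, monocyte and lymphocyte markers, those so named were used. Alternatives were pseudocounts of 0.1 and 5, a mean of at least 5 TPM, no trend, quantile normalization, median of ratios scaling, the most abundant row, every row on its own, the mean of the 3 animal means, and each library left out. No sequences or coordinates are given.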

Additional observations from a re-analysis of the deposited data

Results flagged for a closer look

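Of 20 measures examined over the 5 libraries (each member on both scales, and 2 ratios), 2 had a library set apart from the rest by Dixon's criterion, which chance meets in about 1 of 20 groups. ALAS2 in Hua June was 5184.84 TPM as deposited, against 2477 to 3232 in the other 4 libraries. The gap to the nearest library was 0.721 of the whole range, with a critical value of 0.71. Relative to the globin pair, ALAS2 in Hua June was 7.234 TPM per 1000 TPM of the pair, against 4.37 to 4.88, with a gap of 0.821 of the range. The 2 measures share the same ALAS2 values. The measure relative to the pair also rests on the make-up of the pair. Hua June had the lowest level of identifier 3043 (269170 TPM) and the highest of identifier 3040 (447562 TPM). Whether Hua June would be set apart relative to either identifier alone was not tested. Rescaled, no member had a library set apart.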

How the results depend on the processing

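Counts of called features depended on the processing. Keo against Pele as deposited gave 2418 calls (140 higher, 2278 lower), but 504 with a mean of at least 5 TPM (36 and 468), 346 with quantile normalization (208 and 138), 414 with median of ratios scaling (254 and 160) and 339 to 2383 with a library left out. Rescaled it gave 434 (253 and 181), 66 with no trend and 24 to 719 with a library left out. Hua as deposited gave 443, with 687 and 213 for pseudocounts of 0.1 and 5, 109 with a mean of at least 5 TPM, 106 with quantile normalization (43 and 63), 178 with median of ratios scaling (64 and 114) and 215 to 475 with a library left out. Rescaled it gave 299, with 54 for no trend, 146 for quantile normalization and 28 to 847 with a library left out.

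The calls of FECH, identifier 3145 and ALAS2, and those of the 4 other genes called, kept their direction under the alternatives run. FECH in Keo kept its call as deposited except without 3 libraries, and rescaled lost it also with no trend (1.49, adjusted p = 0.0964). ALAS2 in Hua lost its call with no trend (0.80, adjusted p = 0.124), quantile normalization (0.79, adjusted p = 0.189) and median of ratios scaling (1.12, adjusted p = 0.163), as well as without Pele June. Identifier 3145 lost its rescaled call with a pseudocount of 0.1 (1.02), no trend (1.00), quantile normalization (1.02), median of ratios scaling (1.06), the most abundant row (1.00) and every row on its own (1.00). Stomatin lost its call with quantile normalization (-0.54) and median of ratios scaling (-0.52), and with no trend the rescaled calls of the BCL2 interacting protein (adjusted p = 0.0957) and of KLRD1 in Hua (adjusted p = 0.0995) were lost. The cause was not tested.

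Sign changes among the members, 38 in all, were limited to those not called. With quantile normalization and median of ratios scaling, Keo minus Pele became 0.24 and 0.22 for UROS, 0.12 and 0.15 for UROD, 0.12 and 0.12 for CPOX and 0.09 and 0.12 for PPOX, and Hua's deposited difference became 0.0043 and 0.02 for ALAS1, 0.10 and 0.09 for UROS, 0.21 and 0.19 for UROD, 0.19 and 0.19 for CPOX and 0.03 and 0.02 for PPOX. Under the same pair of settings Hua's rescaled difference became 0.01 and 0.02 for ALAS1 and 0.04 and 0.02 for PPOX. With the most abundant row, or every row on its own, UROS became 0.01 in Keo and 0.45 in Hua, and FECH in Hua became -0.01 with a pseudocount of 5. With a library left out, UROS in Keo ran from -0.40 to 0.01 as deposited, CPOX in Hua from -0.14 to 0.02 and FECH in Hua from -0.08 to 0.12. Rescaled, ALAS1 in Keo ran from -0.26 to 0.01, UROD from -0.05 to 0.26, PPOX from -0.01 to 0.15, ALAS1 in Hua from -0.11 to 0.03 and UROS in Hua from -0.0033 to 0.11.

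With a mean of at least 5 TPM, UROS and CPOX were left out as deposited and gave no value. The mean ratio of ALAS2 to ALAS1 was 527 to 724, and ALAS2 per 1000 TPM of the globin pair 4.57 to 5.29, with a library left out. The number of neighbours in order in every library was 3 to 4. No paired analysis was possible because the labels carry no replicate numbers and the animals share no dates.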
